A study of Homo sapiens with 16 samples.

Results

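The cytochrome P450 genes were examined in 4 established human bladder cancer (BC) cell lines, 253J, J82, RT112 and TCCSUP. Members were the gene symbols made of CYP, a family number, a subfamily letter and a gene number. Symbols with the P ending that marks pseudogenes were left out, as were CYP26A1 and CYP26B1. This gave 54 of the 35993 symbols in the count table, of which 38 passed the filter on low counts and were tested with 21297 genes in all. Cells of genotype WT received CM-1758, an inhibitor of histone deacetylases, at the IC50 of their own line, or no drug as control, for 48 h, with 2 libraries of ribosomal RNA-depleted total RNA per line and treatment. The labels give the control as DMSO vehicle, whereas the study's figure legends call it untreated, and if the latter holds, effects of the vehicle and of CM-1758 cannot be told apart. 253J, J82 and RT112 were grown in DMEM and TCCSUP in EMEM, so that line and medium cannot be told apart for TCCSUP, and dose differed between lines with the IC50. The 16 libraries held 22506431 to 32537104 counts each. In such bulk samples, fewer expressing cells and less RNA per cell cannot be told apart.

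P450 enzymes are haem proteins of the endoplasmic reticulum or mitochondria that insert an oxygen atom into lipids, sterols, vitamins and foreign compounds, using electrons from NADPH-cytochrome P450 reductase or from ferredoxin. The CYP1 genes are textbook targets of the aryl hydrocarbon receptor, the CYP4 genes mostly hydroxylate the end carbon of fatty acids and eicosanoids, and others serve cholesterol, steroid hormone and vitamin D metabolism. In the bladder, P450 enzymes such as CYP4B1 are known for activating aromatic amines, a class of bladder carcinogens.

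Promoter sequences are shown for CYP1A1, CYP4F22 and CYP4F2, the 3 genes that rose past both limits in all 4 lines. Sequences are also shown for CYP4F3, a close relative of CYP4F2 in the same cluster, and for CYP51A1, which fell in all 4 lines. Each is the 250 bases before the annotated start in RefSeq on GRCh38.p14, written 5′ to 3′ in the direction of the gene. Capitals mark the core of the xenobiotic response element (GCGTG), the GC box (GGGCGG) and the TATA box (TATAAA), each read on both strands.

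CYP1A1, chr15:74725529-74725778 (- strand): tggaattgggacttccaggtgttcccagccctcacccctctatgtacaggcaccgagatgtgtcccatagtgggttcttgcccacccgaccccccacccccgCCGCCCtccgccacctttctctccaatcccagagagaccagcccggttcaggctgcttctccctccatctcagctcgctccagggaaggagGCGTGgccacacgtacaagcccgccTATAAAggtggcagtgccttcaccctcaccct

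CYP4F22, chr19:15508275-15508524 (+ strand): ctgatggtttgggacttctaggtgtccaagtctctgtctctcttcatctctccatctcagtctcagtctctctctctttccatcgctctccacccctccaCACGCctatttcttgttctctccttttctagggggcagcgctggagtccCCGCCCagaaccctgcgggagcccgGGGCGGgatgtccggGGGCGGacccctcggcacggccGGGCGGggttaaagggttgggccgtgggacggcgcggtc

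CYP4F2, chr19:15898075-15898324 (- strand): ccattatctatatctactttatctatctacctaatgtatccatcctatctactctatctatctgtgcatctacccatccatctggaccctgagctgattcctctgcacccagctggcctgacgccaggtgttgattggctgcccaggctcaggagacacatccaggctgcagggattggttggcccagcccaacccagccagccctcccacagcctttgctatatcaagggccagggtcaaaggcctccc

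CYP4F3, chr19:15641062-15641311 (+ strand): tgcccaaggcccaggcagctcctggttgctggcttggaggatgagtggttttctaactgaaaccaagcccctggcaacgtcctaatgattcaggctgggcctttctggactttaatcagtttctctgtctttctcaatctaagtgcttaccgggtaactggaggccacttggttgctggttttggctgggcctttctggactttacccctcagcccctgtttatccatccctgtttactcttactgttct

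CYP51A1, chr7:92134478-92134727 (- strand): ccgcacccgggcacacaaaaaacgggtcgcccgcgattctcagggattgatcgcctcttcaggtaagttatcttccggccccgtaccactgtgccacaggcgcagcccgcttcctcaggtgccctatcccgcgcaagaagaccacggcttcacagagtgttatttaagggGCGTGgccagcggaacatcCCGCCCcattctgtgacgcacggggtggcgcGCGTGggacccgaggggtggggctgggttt

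The CYP1A1 promoter held all 3 motifs, with the first base of the TATA box at -32, the xenobiotic response element core at -57 and the GC box at -148 from the start. The CYP4F22 promoter held 4 GC boxes and 1 response element core, whereas the CYP4F2 and CYP4F3 windows held none of the 3 motifs. The CYP51A1 window had 2 response element cores, at -80 and -30, and a GC box at -61. RefSeq promoters were matched for 37 members, 49 windows in all, and no window had 2 different motifs sharing bases. A TATA box was present in 30.6% of the member windows and in 10.7% of all 35116 windows, the response element core in 22.4% and 32.2%, and the GC box in 40.8% and 42.6%. The median number of CpG dinucleotides was 3 in the member windows and 11 in all windows. These are descriptions of letters, and factor binding was not measured.

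With CM-1758 more members rose than fell past the limits used here, in each of the 4 lines. A call needed a log2 fold change past 2 or -2 and an adjusted p under 0.01, by the quasi-likelihood test of edgeR. In 253J, 9 members were higher, where 9.43% of all tested genes were, and 0 were lower, against 3.50%. In J82, 9 were higher (8.81% of all tested genes) and 0 lower (1.24%). At an unadjusted p under 0.05 in edgeR, 4 members had a negative change in 253J and 4 in J82, none with a log2 fold change below -2, and DESeq2 also called 0 lower in both. In RT112, 8 were higher (11.4% of tested genes) and 2 lower (1.39%), and without RT112 control replicate 1 these were 5 and 1. TCCSUP had the most, with 14 higher (14.2%) and 1 lower (3.31%). In 3, 4, 4 and 5 of the calls in 253J, J82, RT112 and TCCSUP, the other side had 0 counts in both libraries, and the filter keeps a gene that is present in one group alone.

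Without the fold limit, at an adjusted p under 0.01 in edgeR, 12 members were higher and 2 lower in 253J, against 21.4% and 18.1% of tested genes. The counts were 13 and 2 in J82 (17.4% and 13.3%), 11 and 7 in RT112 (20.0% and 14.7%), and 16 and 3 in TCCSUP (23.7% and 17.2%). With a log2 limit of 1 and an adjusted p under 0.05 in edgeR, 12, 17, 13 and 20 members were higher in 253J, J82, RT112 and TCCSUP, against 20.2%, 17.5%, 20.4% and 24.0% of tested genes, and 3, 3, 7 and 2 lower, against 13.4%, 7.37%, 8.24% and 11.6%. The median log2 fold change of the members with an estimate reached 0.96 in 253J and 2.05 in J82, against 0.80 in RT112 and 3.04 in TCCSUP. Over all genes tested the medians were 0.19, 0.13, 0.18 and 0.23. With genes absent from one side set at their bound, the members' medians were 0.93, 1.44, 0.80 and 2.16.

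Of the members, 18 were higher past both limits in at least 1 line (25.2% of all tested genes were), 8 in at least 3 lines (5.19%) and 3 in all 4 lines (1.58%). The 3 were CYP1A1, CYP4F2 and CYP4F22, and the other 5 of the 8 were CYP46A1, CYP4F8, CYP4F3, CYP4F12 and CYP2E1. Another 3 members were lower past both limits in at least 1 line (7.15% of all tested genes), namely CYP2F1 and CYP4B1 in RT112 and CYP27C1 in TCCSUP. The number of members with at least 10 counts in both libraries of a group went from 17 in control to 24 with CM-1758 in 253J, from 17 to 23 in J82, from 24 to 27 in RT112 and from 17 to 25 in TCCSUP. With every library thinned to the depth of the smallest, these were 15 to 22, 14 to 22, 23 to 26 and 14 to 25. Genes in general gained detection too: of the 30895 symbols with a count in some library, 48.7% reached 10 counts in both 253J controls and 53.6% with CM-1758, 47.7% and 52.7% in J82, 49.0% and 54.4% in RT112, and 48.8% and 57.6% in TCCSUP. Of the 50 members with a count, 34% and 48% did so in 253J, 34% and 46% in J82, 48% and 54% in RT112, and 34% and 50% in TCCSUP, and this difference between members and all symbols was not tested.

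**Figure D1:**
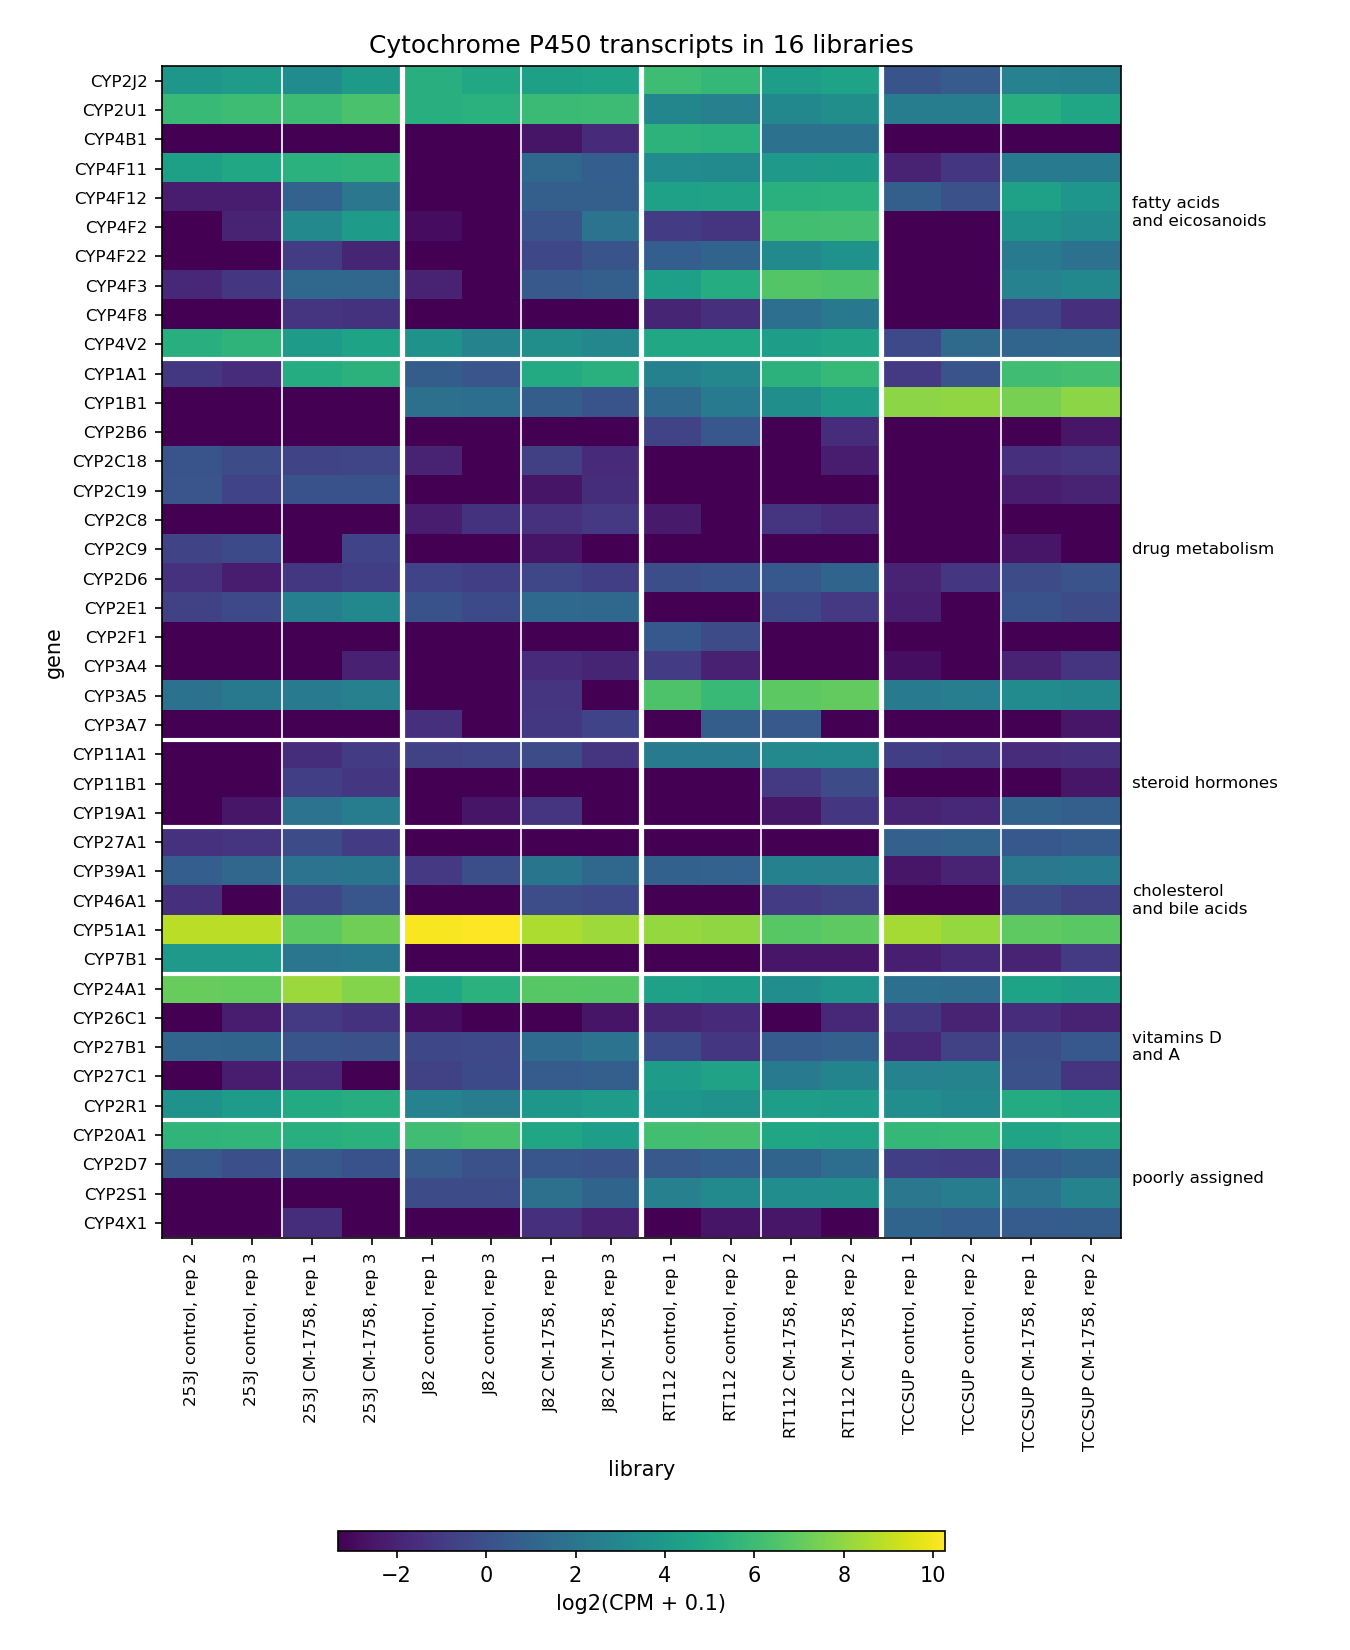
Level of the 40 members with at least 10 counts in some library, as log2(CPM + 0.1), where CPM is counts scaled to library size, by role (rows) and library (columns); the darkest colour is 0 counts. The CYP4F rows and CYP1A1 brighten from control to CM-1758 in each line, except CYP4F8 in J82, while CYP51A1 is bright in all 16 libraries.

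**Figure D2:**
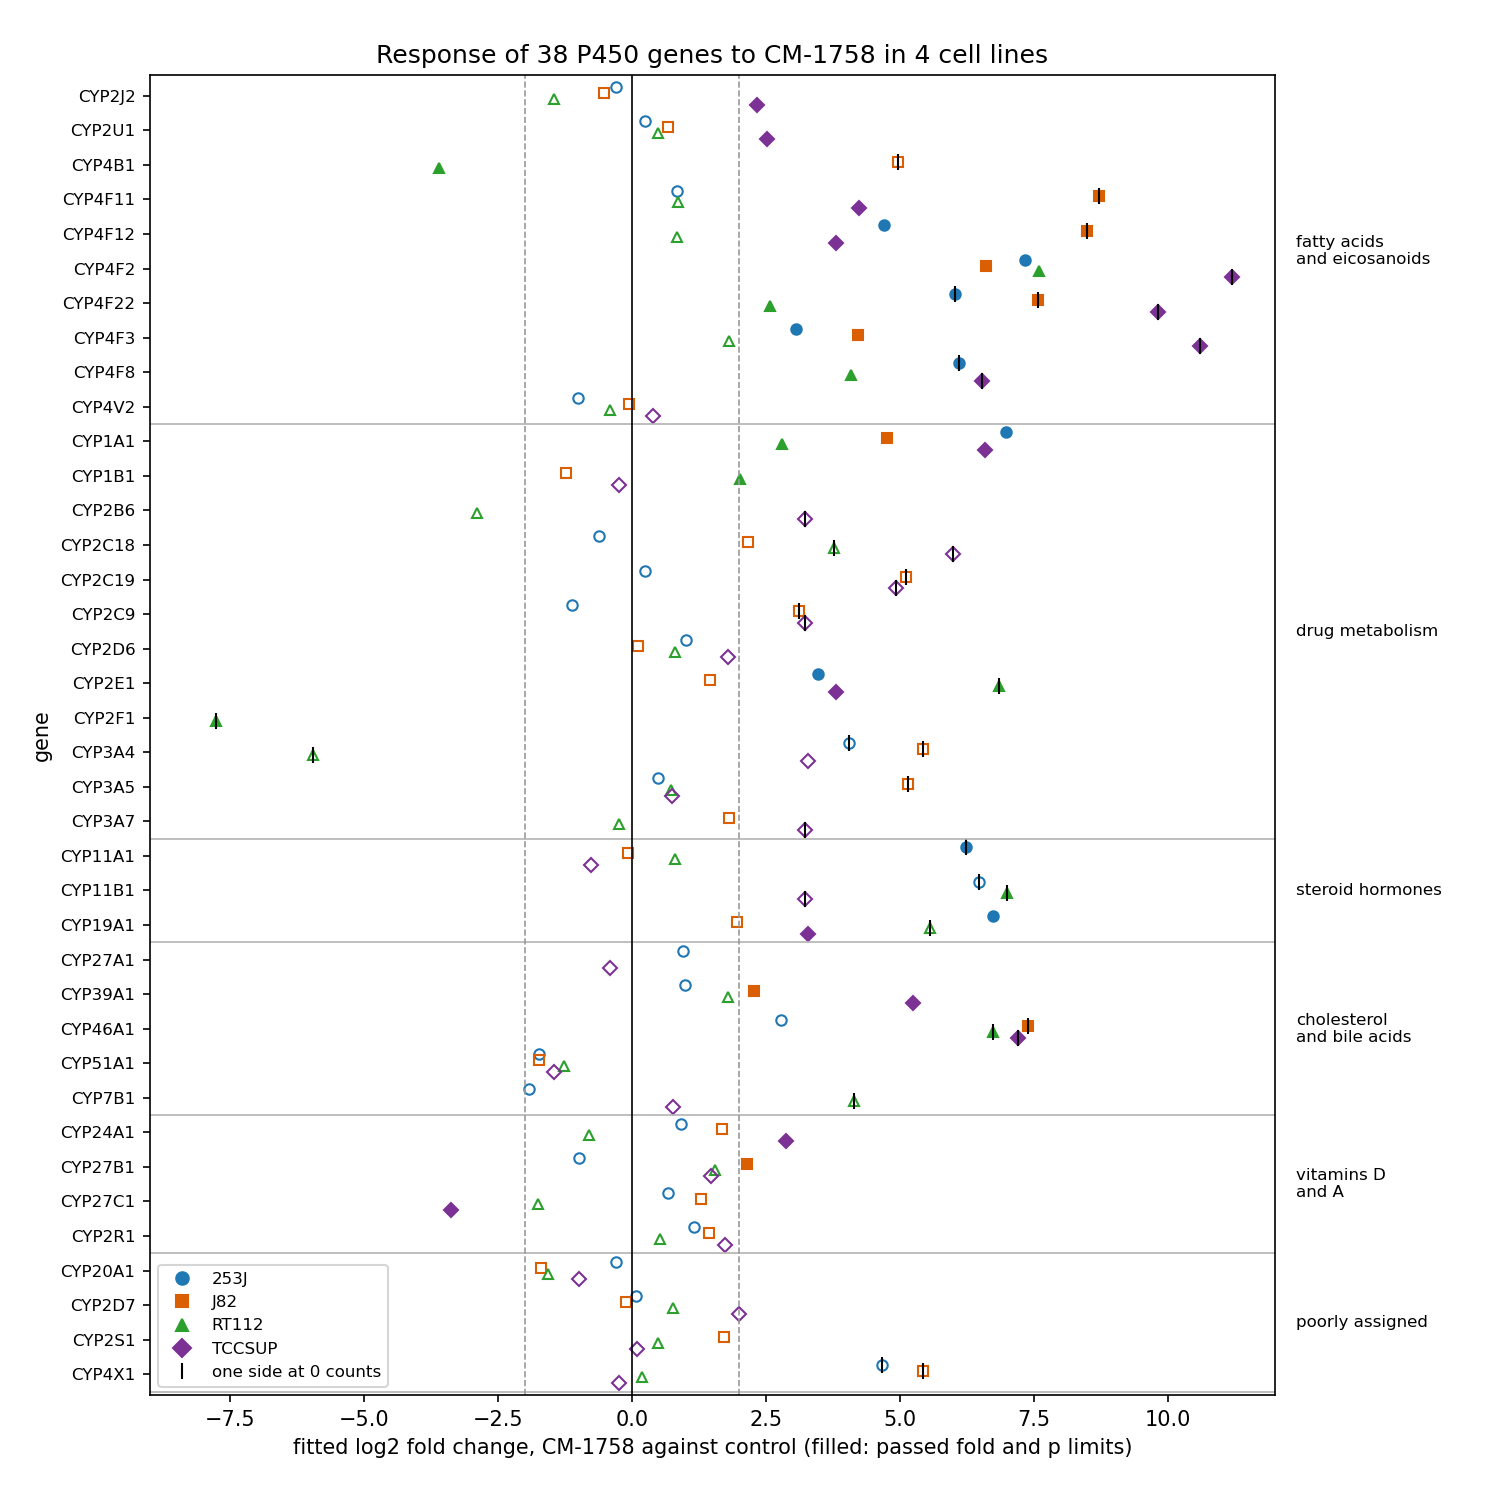
Fitted log2 fold change of the 38 tested members, CM-1758 against control, by role and line; filled symbols passed both limits, dashed lines mark -2 and 2, and a vertical tick marks an estimate with 0 counts on one side, whose size is not a measured fold. The CYP4F symbols lie to the right of 0 in every line with an estimate, and the CYP51A1 and CYP20A1 symbols to the left.

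The CYP4F genes, ω-hydroxylases of leukotrienes, arachidonic acid and other fatty acids, made 19 of the 40 calls of a higher level. All 6 members were measured, giving 23 pairs of gene and line with an estimate. Both CM-1758 libraries exceeded both controls in all 23 pairs, 19 pairs passed both limits and 22 passed an adjusted p under 0.01 in edgeR. Of all tested genes, both CM-1758 libraries exceeded both controls in 40.9% (253J), 34.8% (J82), 41.8% (RT112) and 45.4% (TCCSUP). By line, 5, 5, 3 and 6 of the 6 CYP4F members were higher past both limits in 253J, J82, RT112 and TCCSUP, against 9.43%, 8.81%, 11.4% and 14.2% of all tested genes. Among the remaining members, 21 of 112 pairs passed both limits upwards. The CYP4F genes were not a list of their own beforehand, so these shares describe them and are not a test. Nor are the pairs independent, since CYP4F copies may share reads.

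CYP4F2, which hydroxylates arachidonic acid and vitamin K, had 0 and 4 counts in the 253J control libraries and 212 and 509 with CM-1758. In J82 it went from 1 and 0 counts to 28 and 102. In RT112 it went from 13 and 9 to 1811 and 1910 counts, or from 0.365 ± 0.085 to 71.8 ± 1.40 CPM, counts scaled to library size (SD, n = 2). TCCSUP controls had 0 counts in both libraries, and CM-1758 libraries had 327 and 239. CYP4F2 was thus close to absent from all 8 control libraries and present in all 8 treated ones, with no overlap in any line. The log2 fold change in RT112 was 7.60 (SE 0.58, edgeR adjusted p = 2.88e-07), and in TCCSUP the level was at least 92.7-fold higher, taking 3 counts per library as the floor. The ratio of counts per depth was 176 in 253J (95% exact counting interval 68.6 to 649) and 122 in J82 (21.5 to 4850), intervals that cover counting error only. All 4 lines passed both limits, with edgeR adjusted p of 2.13e-06 in 253J, 2.68e-04 in J82 and 2.30e-06 in TCCSUP. Leaving out any single library kept the call, but without 253J control replicate 3 the fitted log2 fold change went from 7.34 to 11.45, and without J82 control replicate 1 from 6.60 to 8.94, since the control left had 0 counts. It was 6.34 without 253J control replicate 2, 6.73 without 253J CM-1758 replicate 3, and 5.44 to 7.29 without either J82 CM-1758 library or J82 control replicate 3. A difference in response among lines was not detected (edgeR interaction adjusted p = 0.685).

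CYP4F3, which inactivates leukotriene B4, had 5 and 9 counts in 253J controls and 57 and 64 with CM-1758, and 4 and 0 against 36 and 48 in J82. RT112 already had 608 and 1012 counts in controls, and reached 2484 and 2409 with CM-1758. TCCSUP had 0 counts in both controls, and 171 and 200 after treatment. The gene therefore rose in a line that already expressed it and in one where it was undetected. The log2 fold change was 3.06 (SE 0.48, edgeR adjusted p = 1.02e-04) in 253J and 1.80 (SE 0.26, edgeR adjusted p = 6.88e-05) in RT112, the latter under the fold limit. In TCCSUP the level was at least 61.1-fold higher (edgeR adjusted p = 1.91e-07), and in J82 the ratio was 19.7 (counting interval 7.40 to 73.9, edgeR adjusted p = 1.43e-04). In J82 the fitted value went from 4.21 to 8.32 without control replicate 1 and to 3.23 without control replicate 3. In RT112 it was 2.25 without control replicate 2 and 1.46 without control replicate 1. Its response differed among lines (edgeR interaction adjusted p = 0.000118).

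CYP4F22, which makes the ultra-long ω-hydroxy fatty acids of the skin barrier, had 0 counts in both controls of 253J, J82 and TCCSUP. With CM-1758 it had 11 and 5 counts in 253J, 19 and 31 in J82, and 133 and 82 in TCCSUP. In RT112 it went from 48 and 59 to 231 and 318 counts. No treated library of any line overlapped its controls. The RT112 log2 fold change was 2.57 (SE 0.40, edgeR adjusted p = 2.42e-04), and the level was at least 2.70-fold, 7.76-fold and 35.1-fold higher in 253J, J82 and TCCSUP. The 253J call rested on few counts and was lost without control replicate 2 (edgeR adjusted p = 0.0219), control replicate 3 (0.0193) or CM-1758 replicate 1 (0.0216), and with 253J fitted alone the gene fell below the filter on low counts.

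CYP4F12 acts on arachidonic acid and on drugs such as antihistamines. It had 3 and 3 counts in 253J controls and 47 and 123 with CM-1758, 0 and 0 against 46 and 49 in J82, and 41 and 24 against 578 and 349 in TCCSUP. RT112 held 657 and 673 counts in controls and 999 and 1054 with CM-1758, a log2 fold change of 0.84 (SE 0.29) that did not pass (edgeR adjusted p = 0.0267). CYP4F12 thus rose past both limits in the 3 lines with few control counts. The log2 fold change was 3.80 (SE 0.36, edgeR adjusted p = 1.17e-06) in TCCSUP and 4.71 (SE 0.56, edgeR adjusted p = 8.25e-06) in 253J, where it was 4.0 without CM-1758 replicate 3. In J82 the level was at least 14.8-fold higher (edgeR adjusted p = 2.63e-05).

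CYP4F11, an ω-hydroxylase of vitamin K and of long-chain fatty acids, was undetected in both J82 controls and had 64 and 47 counts there with CM-1758, at least 17.4-fold higher (edgeR adjusted p = 7.55e-07). In TCCSUP it went from 4 and 9 to 127 and 125 counts, a log2 fold change of 4.23 (SE 0.33, edgeR adjusted p = 1.93e-07) that was 4.89 without control replicate 2. 253J went from 589 and 714 to 1043 and 1360 counts, and RT112 from 285 and 250 to 405 and 434. All treated libraries were above their controls, by less in the lines that expressed the gene at the outset. The log2 fold changes were 0.84 (SE 0.19) in 253J and 0.86 (SE 0.20) in RT112, with edgeR adjusted p of 2.36e-03 and 2.95e-03. The response differed among lines with the smallest interaction p of the tested members (edgeR adjusted p = 2.93e-06).

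CYP4F8, a prostaglandin hydroxylase known from seminal vesicles, had 0 counts in all 4 J82 libraries. It went from 5 and 8 to 77 and 117 counts in RT112, a log2 fold change of 4.08 (SE 0.60, edgeR adjusted p = 2.21e-04). In 253J it went from 0 and 0 to 8 and 9, and in TCCSUP from 0 and 0 to 15 and 7. These low counts were at least 2.78-fold and 3.58-fold higher. The call in 253J was lost on leaving out any 1 of its 4 libraries (edgeR adjusted p 0.0122 to 0.0231), and in TCCSUP without either control (0.0129 and 0.0138) or without CM-1758 replicate 1 (0.0139). With either line fitted alone the gene fell below the filter.

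**Figure D3:**
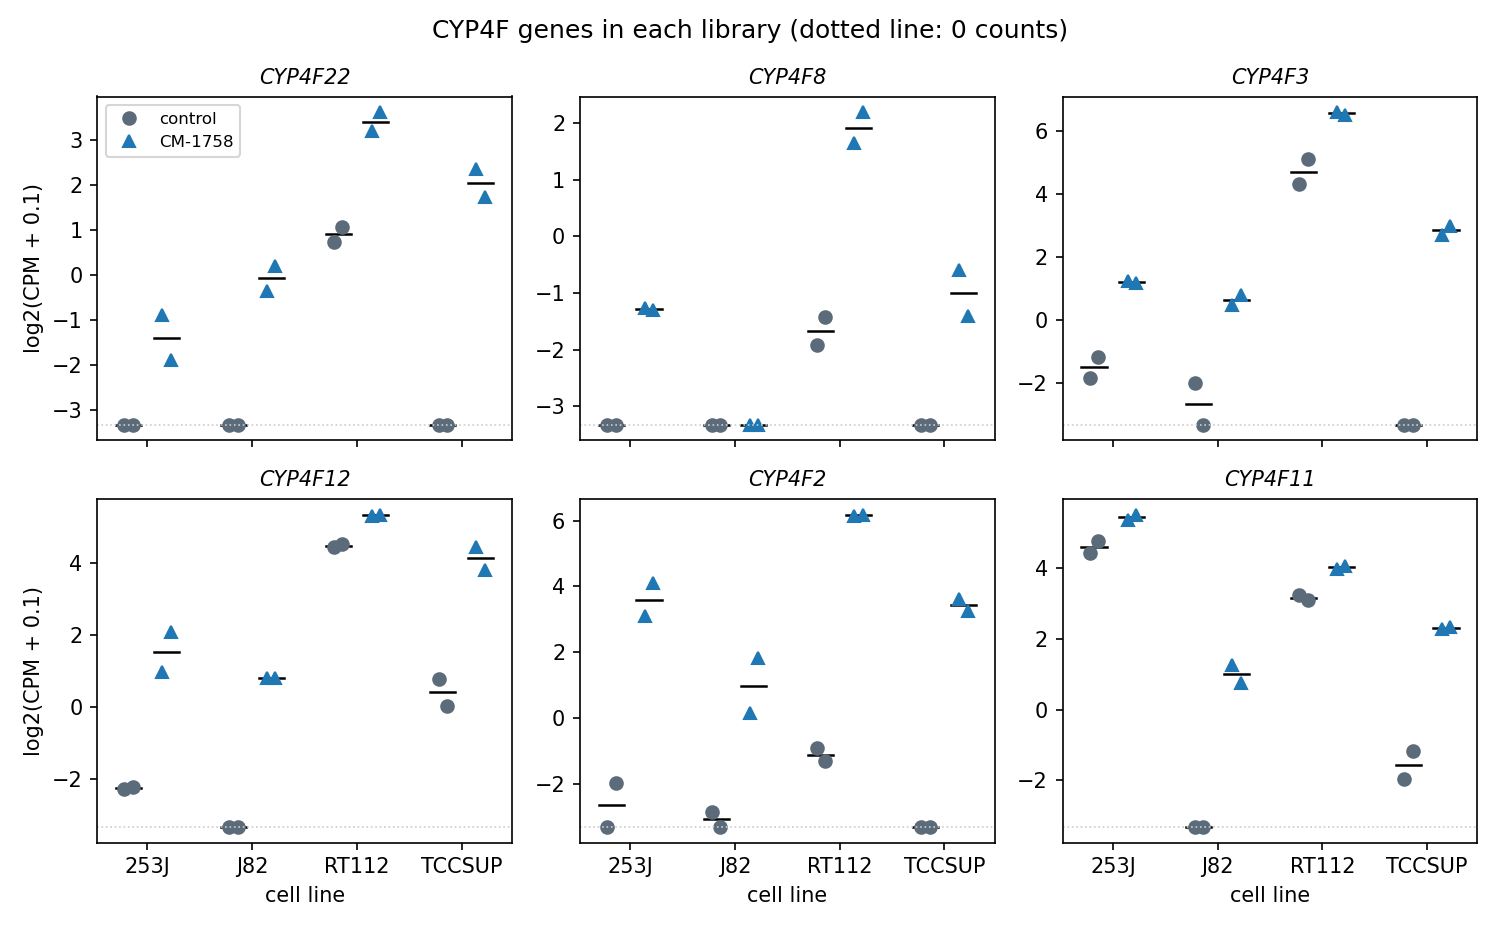
Level of the 6 CYP4F genes in each library, as log2(CPM + 0.1), by line; circles are control libraries, triangles CM-1758 libraries, horizontal bars the mean of 2 libraries, and the dotted line 0 counts. Treated libraries lie above their controls in every panel and line except CYP4F8 in J82, where all 4 are at 0.

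The 6 CYP4F genes lie in 1 cluster on chromosome 19, in the order CYP4F22, CYP4F8, CYP4F3, CYP4F12, CYP4F2 and CYP4F11 in RefSeq. They are near-identical in parts to each other and to the cluster's pseudogenes, so that reads may have been split between copies, and each single value is uncertain to that extent.

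Among the enzymes of drug and foreign-compound metabolism, CYP1A1 was higher past both limits in all 4 lines and CYP2E1 in 3. Of 17 members of this role, 12 were tested. In 253J, 2 were higher past both limits and 0 lower, in J82 1 and 0, in RT112 3 and 1, and in TCCSUP 2 and 0. Of all tested genes, 9.43%, 8.81%, 11.4% and 14.2% were higher in these lines, shares near those of this role in J82 and TCCSUP, and the same shares stand beside the counts of the other roles and lists below. The median log2 fold changes were 0.75, 2.63, 0.76 and 3.23, or 0.75, 1.12, 0.76 and 3.22 with absent genes at their bound.

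CYP1A1, which oxidises polycyclic aromatic hydrocarbons, had 10 and 6 counts in 253J controls and 847 and 1247 with CM-1758. J82 went from 40 and 30 to 864 and 1159 counts. RT112 went from 188 and 229 to 1071 and 1433, and TCCSUP from 10 and 28 to 1815 and 1893. Controls spanned 0.296 ± 0.094 CPM in 253J to 6.95 ± 1.14 in RT112, and treated groups 35.1 ± 5.87 in J82 to 71.2 ± 4.63 in TCCSUP (SD, n = 2). No treated library of any line overlapped a control of any line. The log2 fold changes were 6.97 (SE 0.36) in 253J, 4.75 (SE 0.29) in J82, 2.80 (SE 0.24) in RT112 and 6.58 (SE 0.32) in TCCSUP. The edgeR adjusted p was at most 5.34e-07, reached in RT112, and without TCCSUP control replicate 2 the TCCSUP value was 7.47. The size of the rise differed among lines (edgeR interaction adjusted p = 4.12e-06). CYP1A2, its neighbour and the liver's caffeine-oxidising enzyme, had at most 7 counts in any library and was not tested.

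CYP1B1, an oestradiol 4-hydroxylase, followed another course. TCCSUP controls had 5948 and 6666 counts and its treated libraries 4705 and 6017, which overlapped. RT112 went from 73 and 139 to 279 and 462 counts, J82 from 83 and 79 to 42 and 31, and 253J had 0 in all 4 libraries. Only the RT112 rise passed both limits, with a log2 fold change of 2.01 (SE 0.30, edgeR adjusted p = 1.22e-04). That value sits at the limit, and was 1.59 without RT112 control replicate 1, 1.62 without CM-1758 replicate 2 and 2.58 without control replicate 2. The J82 change of -1.24 (SE 0.37, edgeR adjusted p = 0.0163) did not pass. The response differed among lines (edgeR interaction adjusted p = 0.000397), though 253J gave no estimate. CYP1B1 lies beside an antisense gene, CYP1B1-AS1, which had counts in 253J where CYP1B1 had 0, and whether strand was used in counting is not given in the sources used here.

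CYP2E1, the ethanol-oxidising P450, went from 15 and 18 to 142 and 238 counts in 253J, a log2 fold change of 3.46 (SE 0.46, edgeR adjusted p = 2.27e-05). RT112 went from 0 and 0 to 17 and 10 counts, at least 5.24-fold higher (edgeR adjusted p = 3.70e-04). TCCSUP went from 3 and 0 to 26 and 20, a ratio of 15.1 (counting interval 4.86 to 76.0, edgeR adjusted p = 5.27e-04). These 3 lines passed both limits, while J82, from 26 and 20 to 66 and 69 counts, did not (edgeR adjusted p = 0.0162). In TCCSUP the fitted log2 fold change of 3.81 was 7.59 without control replicate 1, where the control left had 0 counts, and 2.84 without control replicate 2.

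CYP3A5, the extrahepatic relative of CYP3A4, was abundant in RT112, with 2702 and 1675 control counts and 2923 and 3333 after treatment. In the 3 lines with control counts its log2 fold changes were 0.49 in 253J, 0.73 in RT112 and 0.75 in TCCSUP, none of which passed (edgeR adjusted p 0.0312 to 0.206). J82 had 0 and 0 counts in controls and 9 and 0 with CM-1758, a difference that rested on replicate 1. With every library kept it passed by DESeq2 (adjusted p = 0.00792) but not in edgeR (0.0619). Without J82 CM-1758 replicate 3, which had 0 counts, the fitted log2 fold change was 6.15. CYP2F1, a lung enzyme, had 38 and 22 counts in RT112 controls and 0 in both treated libraries, at least 8.58-fold lower (edgeR adjusted p = 4.21e-03). That call was lost without any 1 of the 4 RT112 libraries (edgeR adjusted p 0.0158 to 0.0327), and DESeq2 gave no adjusted p for it. CYP2A6, CYP2A13, CYP4Z1 and CYP11B2 had 0 counts in every library, 10 members had 3 counts or fewer in every library, and no member that went untested exceeded 11 counts. CYP3A7, CYP2D6 and CYP2D7 have near-identical copies or readthrough genes, and their counts are uncertain.

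In sterol metabolism, CYP51A1, the lanosterol 14α-demethylase of cholesterol synthesis, fell in every line. Controls had 12732 and 12000 counts in 253J and CM-1758 libraries 2926 and 4725. J82 went from 29222 and 33738 to 10950 and 9116 counts, RT112 from 8588 and 7547 to 2677 and 3054, and TCCSUP from 8706 and 7191 to 3158 and 2760. No treated library reached a control of its line. The log2 fold changes were -1.74 (SE 0.18) in 253J, -1.74 (SE 0.18) in J82, -1.28 (SE 0.18) in RT112 and -1.45 (SE 0.18) in TCCSUP, all under the fold limit and at an edgeR adjusted p of at most 3.84e-05. It was the only tested member lower at an adjusted p under 0.01 in all 4 lines, where 3.69% of all tested genes were (edgeR), and the changes ranged from -1.99 to -1.21 on leaving out single libraries. A difference in response among lines was not detected (edgeR interaction adjusted p = 0.282).

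CYP51A1 supplied 54.3% to 56.3% of the members' TMM-scaled CPM in 253J controls, 84.9% to 85.4% in J82, 38% to 39.2% in RT112 and 43.7% to 50.9% in TCCSUP. After CM-1758 its share was 16.8% to 22.1%, 50.8% to 56.8%, 16.1% to 16.3% and 18.1% to 20.9%. The members' summed level without CYP51A1 was 357 and 386 CPM in 253J controls and 573 and 561 with CM-1758. It went from 197 and 210 to 298 and 299 CPM in J82, from 436 and 418 to 546 and 596 in RT112, and from 332 and 355 to 448 and 492 in TCCSUP. In each line both treated libraries exceeded both controls by this sum without CYP51A1. Abundant members weigh most in the sum. CYP24A1, scaled to exon length, went from 38.2 to 72.1 CPM per kilobase in 253J and from 9.26 to 29.5 in J82. It also rose in TCCSUP, from 0.824 to 6.03, and fell in RT112, from 5.82 to 3.34. With CYP51A1 included, both treated libraries were below both controls in 253J, J82 and TCCSUP. That full sum went from 818 and 846 to 688 and 720 CPM in 253J, and from 1310 and 1440 to 690 and 607 in J82. In TCCSUP it went from 676 and 630 to 566 and 600 CPM. RT112 had 717 and 673 CPM in controls and 650 and 712 with CM-1758, which overlapped.

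CYP46A1, the brain's cholesterol 24-hydroxylase, was undetected in the controls of J82, RT112 and TCCSUP. With CM-1758 it had 23 and 21 counts in J82, 11 and 14 in RT112 and 21 and 14 in TCCSUP, at least 6.88-fold, 4.83-fold and 5.72-fold higher, with edgeR adjusted p of 2.30e-03, 4.52e-03 and 2.56e-03. 253J went from 7 and 0 to 17 and 34 counts and did not pass (edgeR adjusted p = 0.0184), though it passed without control replicate 2, where the fitted log2 fold change went from 2.78 to 7.64, and when 253J was fitted alone (edgeR adjusted p = 0.00957). Without 253J control replicate 3 the value was 1.83. All 8 treated libraries had the transcript and 1 of 8 controls did, at counts low enough that single libraries decided calls. The call was lost without either J82 control (edgeR adjusted p 0.0127 and 0.0148), without any 1 of the 4 RT112 libraries (0.0124 to 0.0296), and without either TCCSUP control or CM-1758 replicate 1 (0.0137 to 0.0191).

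CYP39A1, an oxysterol 7α-hydroxylase, went from 2 and 4 to 112 and 126 counts in TCCSUP, a ratio of 39.1 (counting interval 17.7 to 108, edgeR adjusted p = 8.88e-07). In J82 it went from 10 and 24 to 107 and 67, a log2 fold change of 2.27 (SE 0.39, edgeR adjusted p = 3.05e-04). That fell to 1.80 without J82 control replicate 1 and to 1.92 without CM-1758 replicate 1, under the fold limit, and was 2.99 without control replicate 3, and its edgeR adjusted p was 0.0101 when J82 was fitted alone. RT112 went from 53 and 53 to 160 and 157 counts (log2 fold change 1.79, SE 0.35, edgeR adjusted p = 6.67e-04), and 253J from 43 and 55 to 87 and 114 (0.99, SE 0.35, edgeR adjusted p = 0.0276). CYP7B1, another oxysterol 7α-hydroxylase, was present above 10 counts in 253J only, where it went from 429 and 406 to 98 and 128, a log2 fold change of -1.92 (SE 0.32, edgeR adjusted p = 3.03e-04). Without 253J CM-1758 replicate 3 it was called lower past both limits. Of the 5 tested members of this role, 0, 2, 1 and 2 were thus higher past both limits in 253J, J82, RT112 and TCCSUP and 0 lower. At an adjusted p under 0.01 alone 2, 1, 1 and 1 were lower, against 18.1%, 13.3%, 14.7% and 17.2% of all tested genes (edgeR).

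In vitamin metabolism, CYP24A1, the 24-hydroxylase that degrades active vitamin D, moved in opposite directions. 253J went from 3827 and 3457 to 7494 and 6356 counts, and J82 from 661 and 1116 to 2998 and 3014. TCCSUP went from 77 and 73 to 631 and 487, whereas RT112 went from 658 and 583 down to 255 and 359. Treated and control libraries did not overlap in any line. The log2 fold changes were 0.92 (SE 0.21, edgeR adjusted p = 1.96e-03) in 253J, 1.67 (SE 0.22, 2.43e-05) in J82 and 2.87 (SE 0.25, 4.08e-07) in TCCSUP, the last past both limits. Without J82 control replicate 3 the J82 value was 2.06 and passed both as well. The fall in RT112 was -0.80 (SE 0.22, edgeR adjusted p = 8.27e-03), and the response differed among lines (edgeR interaction adjusted p = 4.18e-06). The RT112 fall had an edgeR adjusted p of 0.0156 with RLE size factors and 0.0222 with library size alone, 0.0155 with a stricter filter and 0.0101 in libraries thinned to 1 depth. It was 0.0513 without RT112 control replicate 1, 0.0249 without control replicate 2 and 0.0995 without CM-1758 replicate 1.

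Of the 4 tested members for vitamins D and A, 0, 1, 0 and 1 were higher past both limits in 253J, J82, RT112 and TCCSUP and 1 was lower, CYP27C1 in TCCSUP. CYP2R1, the 25-hydroxylase, rose at an adjusted p under 0.01 in 253J, J82 and TCCSUP, with log2 fold changes of 1.16 (SE 0.19), 1.44 (SE 0.20) and 1.74 (SE 0.19) and an edgeR adjusted p of at most 1.07e-04. The TCCSUP value was 2.05, past the fold limit, with library size alone. In RT112 it was 0.52 (SE 0.19, edgeR adjusted p = 0.0320). CYP27B1, the 1α-hydroxylase, went from 18 and 19 to 72 and 105 counts in J82, a log2 fold change of 2.15 (SE 0.43, edgeR adjusted p = 1.02e-03), which was 1.90 and not past the limits without CM-1758 replicate 3. CYP27C1, a retinoid desaturase, went from 163 and 176 to 25 and 8 counts in TCCSUP and from 524 and 664 to 124 and 179 in RT112. On the log2 scale the changes were -3.38 (SE 0.51, edgeR adjusted p = 6.27e-05), which was -4.38 without CM-1758 replicate 1 of TCCSUP, and -1.76 (SE 0.42, edgeR adjusted p = 3.02e-03). In J82 it went the other way, from 14 and 20 to 41 and 48 counts, without passing (edgeR adjusted p = 0.0658), and the response differed among lines (edgeR interaction adjusted p = 0.000622).

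Outside the CYP4F cluster, the enzymes of fatty acid and eicosanoid oxidation did not share 1 direction. With the CYP4F genes, 10 of the 12 members of this role were tested, and 5, 5, 3 and 8 were higher past both limits in 253J, J82, RT112 and TCCSUP, while CYP4B1 in RT112 was the 1 lower call. CYP2J2, which makes epoxides of arachidonic acid, went from 1987 and 1582 to 494 and 624 counts in RT112 and from 27 and 37 to 169 and 158 in TCCSUP. 253J had 399 and 476 counts in controls against 242 and 499, and J82 959 and 762 against 588 and 697. TCCSUP thus rose from the lowest control level, while RT112, the highest, fell. Fitted log2 fold changes were -1.46 (SE 0.23, edgeR adjusted p = 1.17e-04) in RT112 and 2.33 (SE 0.30, edgeR adjusted p = 1.62e-05) in TCCSUP, with no pass in the other two. The response differed among lines (edgeR interaction adjusted p = 1.29e-05). CYP24A1 and CYP2J2 were the 2 members with an adjusted p under 0.01 in opposite directions in different lines, and no member was higher in one line and lower in another past both limits.

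CYP2U1, a hydroxylase of long-chain fatty acids, went from 134 and 140 to 958 and 636 counts in TCCSUP, a log2 fold change of 2.51 (SE 0.21, edgeR adjusted p = 2.14e-07). In 253J, J82 and RT112 the changes were 0.24, 0.67 and 0.48, of which J82 alone had an edgeR adjusted p under 0.01 (9.04e-03). The response differed among lines (edgeR interaction adjusted p = 3.79e-05). CYP4B1 was a gene of RT112, with 1339 and 1164 counts in its controls and 87 and 90 with CM-1758, a log2 fold change of -3.60 (SE 0.29, edgeR adjusted p = 6.00e-06). All 4 libraries of 253J and of TCCSUP had 0 counts, and J82 had 0 in controls and 2 and 6 with CM-1758. CYP4B1 is also expressed by normal urothelium.

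CYP20A1, an orphan P450 with no settled substrate, was among the abundant members and fell in 3 lines. J82 went from 1787 and 2181 to 720 and 565 counts, RT112 from 2207 and 2229 to 645 and 640, and TCCSUP from 1344 and 1417 to 655 and 745. 253J went from 1299 and 1303 to 933 and 1214 counts. The treated libraries lay below the controls in all 4 lines. Fitted changes on the log2 scale were -1.71, -1.57 and -1.0 (SE 0.15 each, edgeR adjusted p at most 6.83e-05) in J82, RT112 and TCCSUP, under the fold limit, and -0.31 (SE 0.15, edgeR adjusted p = 0.0943) in 253J. Of the 4 tested members of poorly assigned role, 0 passed both limits in any line. CYP2D7 in TCCSUP was called higher with RLE size factors, library size alone, DESeq2, the stricter filter or thinned libraries. The 4 lines differed in the response of CYP20A1 (edgeR interaction adjusted p = 0.000254).

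**Figure D4:**
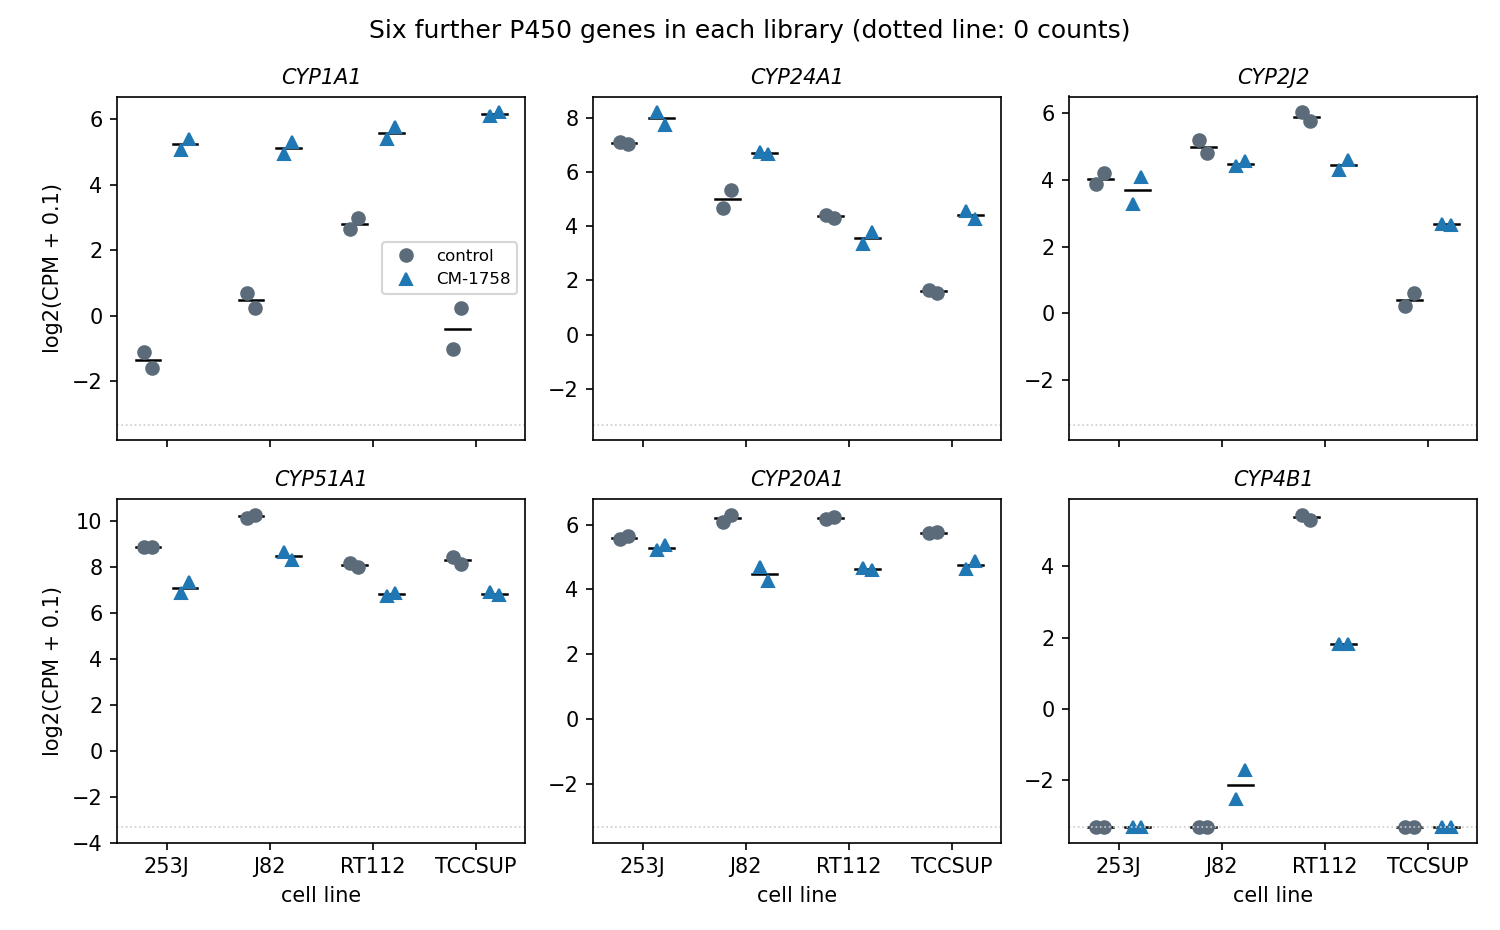
Level of CYP1A1, CYP24A1, CYP2J2, CYP51A1, CYP20A1 and CYP4B1 in each library, as log2(CPM + 0.1), by line; circles are control libraries, triangles CM-1758 libraries, bars the mean of 2 libraries and the dotted line 0 counts. CYP1A1 rises and CYP51A1 falls in all 4 lines, CYP24A1 falls in RT112 and rises in the others, and CYP4B1 is abundant in RT112.

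Among genes of steroid hormone synthesis, 3 of 6 were tested, and 2, 0, 1 and 1 were higher past both limits in 253J, J82, RT112 and TCCSUP with 0 lower. CYP19A1, aromatase, went from 0 and 2 to 90 and 159 counts in 253J, a ratio of 122 (counting interval 33.4 to 1010, edgeR adjusted p = 8.95e-05). In TCCSUP it went from 4 and 5 to 50 and 41 counts, a ratio of 9.97 (5.03 to 22.5, edgeR adjusted p = 5.17e-03), a call lost without any 1 of the 4 TCCSUP libraries (edgeR adjusted p 0.0154 to 0.0403) or without 253J CM-1758 replicate 3 (0.0109), and by DESeq2 (adjusted p 0.0128). J82 and RT112 had 9 counts or fewer in every library. In 253J the fitted log2 fold change of 6.74 was 9.93 without control replicate 3 and 5.78 without control replicate 2. CYP11A1, the side-chain cleavage enzyme, had 0 counts in both 253J controls and 6 and 13 with CM-1758, at least 3.03-fold higher (edgeR adjusted p = 6.57e-04), and it passed in no other line. With 253J fitted alone it fell below the filter on low counts and was not tested. CYP11B1, the 11β-hydroxylase, had 0 in RT112 controls and 10 and 20 counts with CM-1758, at least 5.78-fold higher (edgeR adjusted p = 5.36e-03). That call was lost without any 1 of the 4 RT112 libraries (edgeR adjusted p 0.0135 to 0.0407) and without either 253J CM-1758 library (0.0133 and 0.0129), and DESeq2 gave no adjusted p for it. In 253J it went from 0 and 0 to 12 and 10 counts and just missed the limit (edgeR adjusted p = 0.0103), passing with RLE size factors, library size alone, 253J fitted alone or thinned libraries.

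Control levels differed among the 4 lines for 31 of the 38 tested members, where 69.9% of all tested genes differed (edgeR F test, adjusted p under 0.01). The response to CM-1758 differed for 17 members (36.6% of all tested genes), though not all 17 had an estimate in every line. Past a log2 difference of 2 in either direction, 13 members separated 253J from J82 in controls (18.5% of tested genes), 21 253J from RT112 (20.7%) and 19 253J from TCCSUP (19.6%). Another 16 separated J82 from RT112 (19.3%), 15 J82 from TCCSUP (14.5%) and 19 RT112 from TCCSUP (20.0%).

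Scaled to exon length, CYP51A1 had the highest level of the members in the controls of all 4 lines, at 137 ± 0.294 CPM per kilobase in 253J and 349 ± 24.6 in J82, with 80.1 ± 5.28 for RT112 and 92.5 ± 14.6 for TCCSUP (SD, n = 2). The next levels per kilobase were CYP24A1 in 253J (38.2 ± 1.23), CYP20A1 in J82 (34.4 ± 3.77) and RT112 (34.6 ± 1.12), and CYP1B1 in TCCSUP (44.7 ± 2.56). In RT112, CYP20A1 and CYP2J2 (31.3 ± 4.23 CPM per kilobase) overlapped within their SDs, as did CYP4B1 (18.7 ± 1.37) and CYP3A5 (18.1 ± 5.56). Genes were not tested against each other. In 253J with CM-1758, CYP24A1 led at 72.1 ± 16.4 CPM per kilobase, above CYP51A1 at 41.1 ± 9.19.

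The labelled bladder origin was checked against 12 urothelial markers. RT112 controls had 11 of the 12 at 10 counts or more in both libraries, with KRT7 the most abundant and UPK3A at 0. TCCSUP controls had 7, 253J controls 5 and J82 controls 4, and 253J controls had 0 counts of KRT5, KRT20 and the uroplakins UPK1A, UPK1B, UPK2 and UPK3A. With CM-1758, 253J had 296 and 212 counts of KRT20 and 6 and 26 of UPK1A. The summed urothelial marker level went from 4840 to 5310 CPM in RT112 controls to 3070 to 3450 with CM-1758, beside the falls of CYP4B1, CYP2F1 and CYP2J2 there. KRT7 went from 1760 and 1930 to 1050 and 920 CPM, UPK1B from 1300 and 1520 to 345 and 358, and KRT5 from 271 and 282 to 142 and 163. Other markers were higher in the same treated libraries, with ELF3 at 223 and 212 CPM in controls against 322 and 304, KRT20 at 6.47 and 6.57 against 16 and 18.6, and GATA3 at 36.5 and 38.4 against 45.6 and 47.0. The sum was also lower with CM-1758 in 253J, at 766 to 962 against 1920 to 2850 CPM, and in TCCSUP, at 292 to 327 against 1020 to 1150 CPM, where CYP2J2 did not pass and rose. KRT18 carried both sums, at 2800 and 1860 CPM against 866 and 667 in 253J and 900 and 1040 against 188 and 138 in TCCSUP. Some other markers were higher with CM-1758, among them ELF3 in 253J, at 44.2 and 51.3 CPM against 69.3 and 80.5. In TCCSUP PPARG was at 93.4 and 84.3 CPM against 118 and 127, and KRT20 at 0 counts against 72 and 129. Others were lower in TCCSUP, with ELF3 at 3.64 and 4.1 CPM against 1.12 and 0.865, and EPCAM at 10.3 and 11 against 7.48 and 5.62. KRT7 there was at 5.74 and 6.16 CPM against 2.92 and 3.97, and UPK1B at 1.94 and 0.766 against 0.449 and 0.315. In J82 the summed urothelial marker level was 3010 to 4160 CPM in controls and 3410 to 3440 with CM-1758. Its members moved apart there. KRT7 went from 1420 and 1990 down to 649 and 320 CPM, and KRT18 from 1560 and 2130 up to 2750 and 3060. The part of these markers in the P450 changes was not tested. Of 6 hepatocyte markers, 253J controls had SERPINA1 at 141 CPM, APOB and TTR at 0, and a summed level of 124 to 160 CPM that was 25.3 to 28.8 CPM with CM-1758. SERPINA1 went from 123 and 159 to 21.4 and 21.7 CPM, while ALB had 6 and 2 counts in 253J controls against 72 and 132, and FGB 9 and 11 against 28 and 66. The same sum was at most 0.261 CPM in J82 and RT112 controls and went from 0.919 to 1.11 CPM in TCCSUP controls to 4.42 to 5.27 with CM-1758. TTR was at 0 in all groups. Of 4 steroidogenic markers, the sum was at most 3.35 CPM in any library, with STAR at 0 in all J82 and RT112 libraries. NR5A1, the steroidogenic factor, had 0 and 4 counts in 253J controls and 7 and 6 with CM-1758, 2 and 0 against 12 and 24 in J82, 0 and 0 against 10 and 16 in TCCSUP, and 0 in RT112. Its part in the CYP19A1 and CYP11A1 changes was not tested. Among blood cell markers, CD3E was at 0 in every control library. PTPRC, the pan-leukocyte marker, had 218 and 275 counts in TCCSUP controls and 26 and 32 with CM-1758. In J82 it went the other way, from 2 and 3 counts to 25 and 28, and it had at most 13 counts in 253J and RT112. CD68, a macrophage marker, went from 8.58 and 6.62 CPM in controls to 27.4 and 37 with CM-1758 in 253J and from 68.4 and 24.6 to 18.1 and 6.57 in J82. It went from 4.02 and 3.15 to 2.31 and 2.59 CPM in RT112, and from 19.3 and 20.6 to 8.87 and 15.8 in TCCSUP. Of 3 endothelial markers, PECAM1 and CDH5 were at 0 in the controls of 253J and J82, while VWF had 0 and 9 counts in 253J controls and 34 and 41 in J82 controls. The endothelial sum went from at most 0.345 CPM to 2.02 to 2.19 in 253J, from 1.29 to 1.49 to 2.33 to 2.67 in J82, from 4.30 to 4.93 to 5.34 to 6.02 in RT112, and from 1.03 to 1.34 to 4.75 to 5.15 in TCCSUP. The part of the blood and endothelial markers in the P450 changes was not tested.

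The genes that serve P450 enzymes were measured as 4 companion lists. Of 10 redox partners and haem genes, the numbers higher and lower at an adjusted p under 0.01 were 5 and 2 in 253J, 2 and 1 in J82, 3 and 2 in RT112, and 5 and 4 in TCCSUP (edgeR). Over all tested genes the shares higher and lower were 21.4% and 18.1% in 253J, 17.4% and 13.3% in J82, 20.0% and 14.7% in RT112, and 23.7% and 17.2% in TCCSUP. POR, the reductase that feeds microsomal P450 enzymes, had 137 ± 5.78 CPM in 253J controls against 174 ± 17.9 with CM-1758, 168 ± 10.5 against 229 ± 0.0035 in J82, 142 ± 2.51 against 139 ± 4.88 in RT112, and 165 ± 10.4 against 262 ± 6.99 in TCCSUP. It rose in J82 (log2 fold change 0.45, SE 0.12, edgeR adjusted p = 8.79e-03) and TCCSUP (0.67, SE 0.12, 3.47e-04), far less than CYP1A1 or CYP4F2 in those lines.

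Of 14 receptors and factors, 13 were tested, and 2, 2, 2 and 3 were higher past both limits in 253J, J82, RT112 and TCCSUP with 0 lower. At an adjusted p under 0.01 alone, 6, 5, 3 and 6 were higher and 1, 1, 0 and 0 lower (edgeR), beside the shares of all tested genes given for the redox list. AHR, the aryl hydrocarbon receptor, rose at an adjusted p under 0.01 in 253J (1.04, SE 0.13), J82 (1.31, SE 0.13) and TCCSUP (1.09, SE 0.13) on the log2 scale, with edgeR adjusted p of at most 1.08e-05. In RT112 its log2 fold change was -0.06 (SE 0.13, edgeR adjusted p = 0.765), with 222 ± 32.5 CPM in controls and 214 ± 5.65 with CM-1758. NR1I2, the pregnane X receptor that drives CYP3A genes in liver, had at most 22 counts in any library and passed in no line, except in 253J fitted alone (edgeR adjusted p = 0.00499).

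Of 4 other P450-fold and epoxide hydrolase genes, 1 was higher and 1 lower past both limits in RT112, 1 was higher in TCCSUP, and 0 passed in 253J and J82 (edgeR). Of 12 conjugating enzymes, 3, 2, 2 and 3 were higher and 2, 1, 1 and 1 lower past both limits in 253J, J82, RT112 and TCCSUP (edgeR). MGST1, a membrane-bound glutathione transferase, went from 2172 and 1961 counts to 281 and 462 in 253J. RT112 went from 7528 and 8216 counts to 704 and 1016, and TCCSUP from 8771 and 8430 to 832 and 1088. J82 went from 6119 and 4895 counts to 1785 and 1063, so that MGST1 fell in all 4 lines with no overlap. The log2 fold changes were -2.52, -2.04, -2.98 and -3.18 (SE 0.26 to 0.27, edgeR adjusted p at most 2.07e-05) in 253J, J82, RT112 and TCCSUP. The J82 value was -1.83 without control replicate 1 and -1.68 without CM-1758 replicate 3, and -1.89 to -1.95 under 4 other settings, under the fold limit. NAT2, an N-acetyltransferase of aromatic amines, had 0 counts in both controls of 253J, J82 and RT112 and 0 to 2 in TCCSUP. With CM-1758 it had 25 to 27 counts in 253J, 16 to 38 in J82, 0 to 13 in RT112 and 92 to 139 in TCCSUP. It passed both limits in 253J, J82 and TCCSUP, at edgeR adjusted p of 3.07e-03, 4.07e-03 and 3.29e-04, with levels at least 8.56-fold and 8.34-fold higher in 253J and J82 and a ratio of 114 (counting interval 31.2 to 946) in TCCSUP. The 253J call was lost without either control or CM-1758 replicate 1 (edgeR adjusted p 0.0119 to 0.0220), and the J82 call without either control or CM-1758 replicate 3 (0.0183 to 0.0222). The fitted TCCSUP value of 6.67 was 9.91 without control replicate 2 and 5.76 without control replicate 1, and the RT112 rise passed without CM-1758 replicate 1.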

How the data were processed

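RNA from 16 libraries, 2 per line and treatment, was sequenced by the authors from stranded, ribosomal RNA-depleted total RNA. The submitters' processing notes name HISAT2, StringTie and GRCh37, without versions, and how they were combined is not given in the sources used here. The deposited values were raw read counts per gene symbol, 22506431 to 32537104 per library, and 0 columns were left unused.

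Counts were tested with edgeR 4.0.16 (R 4.3.3, limma 3.58.1): filterByExpr, TMM scaling, 1 model of 8 groups with 8 residual degrees of freedom, quasi-likelihood F tests and Benjamini-Hochberg adjustment over 21297 genes. Replicates came from independent experiments. CPM values use TMM-scaled library sizes, and SDs are over 2 libraries. Intervals are exact at 95% and, like floors of 3 counts per library, cover counting error only. Exon lengths were from GENCODE and served levels per kilobase. In data simulated for J82, 197 of 200 genes changed 8-fold were called, with 2 calls elsewhere, among 21297 genes. The 200 were drawn from genes with a mean above 1 CPM, a level that many called members did not reach in controls. DESeq2 1.42.0, other scalings, filters, thinning, single-line fits, a replicate block and leaving out each library were alternatives.

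Members and lists (roles, companions, markers of other cell types) were chosen with earlier results of these data known. The genes described were those called in 3 or more lines, the 3 largest and smallest called changes per line, the 3 most abundant per line, the 5 smallest p-values among lines, and CYP1A1, CYP1B1, CYP24A1, CYP51A1, CYP4F2 and CYP3A5. Of the companions, those called in 3 or more lines, POR, AHR and NR1I2 were described. CYP11A1, CYP39A1, CYP27B1, CYP2R1 and CYP7B1, the CYP4F pseudogenes and the genes near CYP4F were named after their values were seen. The CYP4F members were set apart from the fatty acid role without having been a list beforehand. A further blood cell marker is not reported here.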

Additional observations from a re-analysis of the deposited data

Results flagged for a closer look

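For 17 members the log2 fold change with CM-1758 differed among the 4 lines by edgeR's interaction F test at an adjusted p under 0.01, where 36.6% of all tested genes did. The adjusted p was 2.93e-06 for CYP4F11, 4.12e-06 for CYP1A1, 4.18e-06 for CYP24A1, 1.29e-05 for CYP2J2, 3.79e-05 for CYP2U1 and 7.48e-05 for CYP4F12. It was 0.000118 for CYP4F3, 0.000254 for CYP20A1, 0.000397 for CYP1B1, 0.000485 for CYP39A1 and 0.000622 for CYP27C1. For CYP4B1 and CYP4F22 it was 0.00188 each, for CYP27B1 0.00236, for CYP11A1 0.00401, for CYP7B1 0.00543 and for CYP2R1 0.00761. CYP24A1 and CYP2J2 had an adjusted p under 0.01 in opposite directions in RT112 and TCCSUP. CYP27B1 had a log2 fold change of -1.0 (SE 0.42, edgeR adjusted p = 0.0621) in 253J against 2.15 in J82. Several of these genes had 0 counts in both libraries of some groups, among them CYP4F22, CYP4B1 and CYP11A1. CYP1B1 in 253J, CYP7B1 in J82 and CYP4B1 in 253J and TCCSUP had 0 counts in both treatments. They had no fold change to compare there, though the F test took in all 4 lines.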

How the results depend on the processing

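Of 2655 recomputed changes of single genes, 2577 stayed on the same side of both limits, 63 lost the call, 15 gained it and 0 reversed. Another 49 calls got no adjusted p under an alternative and are not among these, 43 with 10 counts required in every library, 4 with lines fitted alone and 2 by DESeq2. With at least 10 counts required in every library, which leaves out genes absent from any group, 0, 0, 0 and 4 members were higher in 253J, J82, RT112 and TCCSUP. Lower were then 0 in RT112 and 0 in TCCSUP, while 6 differed in response and 8 in control level. With an adjusted p under 0.05 and a log2 limit of 1, 12, 17, 13 and 20 were higher and 3, 3, 7 and 2 lower in 253J, J82, RT112 and TCCSUP. DESeq2 called 1 lower in RT112 and gave CYP2F1, the other, no adjusted p. Leaving out single libraries gave 7 to 9 higher in 253J, 7 to 10 in J82, 5 to 8 in RT112 (5 without RT112 control replicate 1) and 11 to 15 in TCCSUP. Lower were 0 to 1, 0 to 0, 1 to 2 and 1 to 1, with 27 to 32 members differing in control level and 13 to 18 in response. The lone library left in a group was assumed to vary like the other groups. Replicates differed most in J82, with a chi-square per degree of freedom of 57.4 in controls and 38.5 with CM-1758. It was 9.51 to 17.5 in the other groups. All groups shared 1 estimate of spread per gene, so p-values in J82 may be too small. With J82 fitted alone, 8 of its 9 calls stayed.

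Replicate numbers were shared by 2 pairs of libraries in J82, RT112 and TCCSUP and by 1 in 253J, and deviations of same-numbered libraries correlated at 0.218, 0.043 and 0.017, so the numbers were not taken as pairs. With a replicate block 5 members were higher in 253J and 1 lower in RT112. Of 115 gene values 9 calls were lost and 0 gained, those of CYP4F22, CYP4F8, CYP4F3, CYP11A1 and NAT2 in 253J, CYP46A1, CYP11B1 and CYP2F1 in RT112, and CYP19A1 in TCCSUP.

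Scaling by library size alone moved the median of all genes by 0.27, 0.14, 0.15 and 0.31 (log2) in 253J, J82, RT112 and TCCSUP. With 2 libraries per group, small changes of members with few counts may have been missed. How often was not measured, since the simulation held 8-fold changes in J82 only, and none in genes of low level.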

Other observations

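UCA1, a long noncoding RNA first known from bladder carcinoma, lies among the CYP4F genes on chromosome 19 in RefSeq and rose in all 4 lines at an adjusted p under 0.01 in edgeR. It went from 0 and 0 to 25 and 56 counts in 253J, at least 12.9-fold higher (edgeR adjusted p = 4.88e-05). In J82 it went from 53 and 18 to 358 and 358 counts, a log2 fold change of 3.23 (SE 0.34, edgeR adjusted p = 5.44e-06). RT112 went from 1200 and 1078 to 3564 and 3683 counts (1.89, SE 0.26, edgeR adjusted p = 5.54e-05), and TCCSUP from 82 and 82 to 663 and 865 (3.20, SE 0.30, edgeR adjusted p = 1.29e-06). No treated library overlapped a control of its line.

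WIZ, a zinc finger gene next to the cluster, had log2 fold changes of 0.41, -0.23, 0.34 and -0.36 in 253J, J82, RT112 and TCCSUP, and none passed an adjusted p under 0.01 in edgeR. Its neighbour AKAP8L passed in 253J alone (0.90, edgeR adjusted p = 4.71e-05). RASAL3, another neighbour, went from 0 and 0 to 62 and 36 counts in RT112, at least 19-fold higher (edgeR adjusted p = 0.000693), and passed in no other line. LOC729654, between CYP4F2 and CYP4F11, was at least 4.94-fold higher in J82, had a ratio of 17.5 in TCCSUP (counting interval 6.54 to 66) and a log2 fold change of 1.30 in RT112 (edgeR adjusted p = 0.00564), and did not pass in 253J (0.92, edgeR adjusted p = 0.0281). The pseudogene CYP4F23P, inside the cluster, was at least 3.41-fold higher in 253J and 2.35-fold in J82, and its ratio in TCCSUP was 278 (counting interval 49.5 to 11000). In RT112 its log2 fold change of 0.60 did not pass (edgeR adjusted p = 0.147). CYP4F62P was at least 4.09-fold higher in 253J and 7.18-fold in TCCSUP, and CYP4F30P at least 2.40-fold in 253J and 5.75-fold in TCCSUP with a ratio of 7.63 in RT112 (counting interval 3.42 to 20), all past both limits in edgeR. CYP4F62P did not pass in RT112 (2.36, edgeR adjusted p = 0.0111) or in J82, with 0 and 3 treated counts, and CYP4F30P had 0 counts in all J82 libraries. The pseudogenes CYP4F35P and CYP4F29P were lower in J82, by a log2 fold change of -2.36 (SE 0.53, edgeR adjusted p = 0.0021) and by a ratio of 0.112 (counting interval 0.0464 to 0.233). Reads shared between CYP4F copies make these values uncertain.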
